A study of Caenorhabditis elegans with 2 samples.

Results

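The genes cct-1 to cct-8 of the nematode Caenorhabditis elegans were examined for binding of RNA polymerase II. They are 8 of the 19973 protein-coding genes annotated on the nuclear chromosomes and were chosen by name. Positions of the polymerase on the genome came from ChIP-seq, in which chromatin is precipitated with an antibody and sequenced, here with one against AMA-1, the largest subunit of the polymerase. The single group held whole young adult worms of the laboratory wild type N2, mixed in sex, with 2 biological replicates. A control alignment went into the authors' peak calls and was not analysed here, and no second condition was compared. RefSeq annotates the 8 genes as subunits of T-complex protein 1, from alpha for cct-1 through beta, gamma, delta, epsilon, zeta and eta to theta for cct-8.

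The cytosolic chaperonin, also called TRiC or CCT, is a double ring built from these related but different subunits. It encloses newly made proteins and folds them with energy from ATP, and actin and tubulin are its best known clients. Prefoldin, a smaller complex, holds such chains and hands them over to the chaperonin, while chaperones of the Hsp70 and Hsp90 families act on a wider range of proteins.

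The files are lists of peaks, each with a summit, the point of highest signal, and a signal value from the authors' peak caller. Signal values have a different scale in each list, so peaks were ranked within a list, rank 1 being the strongest, and the rank was also given as a percentage of the list. The authors' final list, made by the irreproducible discovery rate (IDR) procedure and called optimal, held 1103 peaks. The longer relaxed lists, which by their label include background, held 30000 peaks for the pooled reads, 27847 for replicate 1 and 30000 for replicate 2. Each gene was searched over its annotated length and 500 bp on either side. The number of reads behind a list is unknown, and the labels call the replicates biological without saying how the worms were grown apart.

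The replicates differed at genes that mark adult tissues. Of 7 marker genes of adult intestine, adult epidermis and germ line, 6 held a summit in replicate 1 and 0 in replicate 2. Of 4 markers of body wall muscle and neurons, 3 held one in replicate 1 and 4 in replicate 2. The 1 sperm marker examined held none in either replicate. Of all protein-coding genes, 47.4% held a summit in replicate 1 and 38.5% in replicate 2. The markers are few and were grouped with these counts known. The rank in each replicate is therefore given for the strongest summit of each cct gene, and whether tissue content bears on the cct values was not tested.

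All 8 cct genes held polymerase summits in every relaxed list, and 2 of them, cct-5 and cct-6, held a summit in the optimal list. Of all protein-coding genes, 4.4% held an optimal summit in a window of that kind. A pooled summit was held by 40.4% of all genes, and by 49.7% of the genes at least as long as the shortest cct gene (2045 bp). In the pooled list 5554 peaks share the highest −log10 (q-value), 4.05, and all 8 cct genes held a summit among them, against 16.5% of all genes. In the replicates taken alone, the 8 cct genes compare with 47.4% of all genes in replicate 1 and 38.5% in replicate 2. A summit in both replicates was held by the 8 cct genes and by 32.3% of all genes.

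The strongest summits of the cct genes ranked between 864 and 3937 in the pooled list, with a median rank of 3002, or 10% of the list. The median over the 8078 protein-coding genes with a pooled summit was rank 7371, or 24.6%. In replicate 1 the cct median was 8.97% (range 2.00 to 25.3%) and that of genes with a summit 29.9%. In replicate 2 the values were 8.92% (range 3.55 to 16.6%) and 24.9%.

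**Figure D1:**
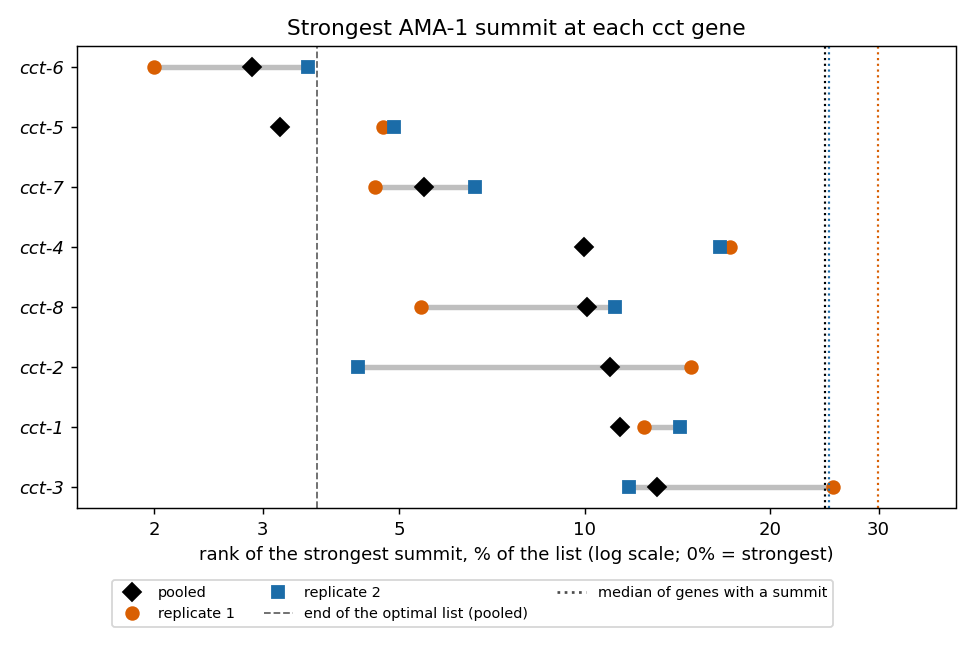
Rank of the strongest summit at each cct gene as a percentage of the list (log axis), in the pooled list (diamonds), replicate 1 (circles) and replicate 2 (squares), with grey bars joining the replicates. The 8 genes lie between 2.88 and 13.1% in the pooled list; dotted lines mark the medians of all genes with a summit (24.6, 29.9 and 24.9%) and the dashed line the end of the optimal list at 3.68%.

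In order of pooled rank the genes were cct-6, cct-5, cct-7, cct-4, cct-8, cct-2, cct-1 and cct-3. The ranges spanned by the replicates overlapped for 4 of the 7 neighbouring pairs in this order. These were cct-5 with cct-7, cct-8 with cct-2, cct-2 with cct-1, and cct-1 with cct-3. A pair without overlap need not keep its pooled order. Both replicates ranked cct-4 (17.2% in replicate 1 and 16.6% in replicate 2) below cct-8 (5.42 and 11.2%). They also ranked cct-4 below cct-2 (14.9 and 4.29%) and cct-1 (12.5 and 14.3%). With 2 replicates no error of a rank can be estimated beyond this range. Relative to the length of each list, 5 of the 8 genes ranked higher in replicate 1 (cct-1, cct-5, cct-6, cct-7 and cct-8), against 47.6% of the 6445 genes with a summit in both.

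The zeta subunit gene cct-6 (WBGene00000381, chromosome III, 5853530 to 5855687, minus strand) held the strongest summit of the family. The optimal and pooled peak (5853205 to 5853540) had a signal value of 43.9 and ranked 864 of 30000. Its summit at 5853373 lay 157 bp past the 3' end, and 104 bp upstream of the annotated start of ddx-23, the next gene on the same strand, which encodes a DEAD-box RNA helicase of the splicing machinery. The strongest summit ranked 558 in replicate 1, 11 bp inside the 3' end of the gene in its 3' UTR, and 1065 in replicate 2, at the same base as in the pooled list. The high signal was thus found in both replicates, at places close to each other. The next pooled summit of cct-6, in coding sequence 865 bp from the 5' end, ranked 3938.

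The epsilon subunit gene cct-5 (WBGene00000380, chromosome III, 4499188 to 4508114, minus strand) came next in the pooled list and was the gene with the most summits. Its optimal peak (signal value 42.4, rank 961) had its summit at 4499103, 85 bp past the 3' end and 58 bp upstream of atf-7, a bZIP transcription factor gene of the innate immune response on the same strand. The strongest summits of replicate 1 (rank 1312) and replicate 2 (rank 1473) lay 79 bp and 145 bp past the 3' end, so the place was shared within 66 bp. Further summits of the pooled list in introns, 2208 bp and 4525 bp from the 5' end, ranked 1216 and 1443, outside the optimal list of 1103 peaks. The nearest summits to the one at 4525 bp ranked 7111 in replicate 1 and 1786 in replicate 2. In replicate 2 the intron summit near 2208 bp ranked 1491, close to the one past the 3' end, whereas in replicate 1 it ranked 3680. In all, cct-5 held 16 summits in the pooled list, 16 in replicate 1 and 18 in replicate 2, and 7 of the pooled ones were at the highest −log10 (q-value).

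Both optimal summits therefore lay in a short gap between a cct gene and the next gene on its strand. The 2 gaps are shown because the optimal binding of the family rests on them. They are read 5' to 3' along the cct gene from the RefSeq reference genome (WBcel235, the ce11 coordinates), from the base after its annotated 3' end to the base before the next annotated gene. Capitals mark 21 bases centred on the pooled summit. The gap past cct-5 is chrIII:4499046-4499187 (summit at base 85) and that past cct-6 is chrIII:5853270-5853529 (summit at base 157), both on the minus strand.
cct-5 gap: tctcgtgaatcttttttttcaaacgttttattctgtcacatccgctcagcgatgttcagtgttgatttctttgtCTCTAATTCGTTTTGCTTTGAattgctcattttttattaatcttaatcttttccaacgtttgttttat
cct-6 gap: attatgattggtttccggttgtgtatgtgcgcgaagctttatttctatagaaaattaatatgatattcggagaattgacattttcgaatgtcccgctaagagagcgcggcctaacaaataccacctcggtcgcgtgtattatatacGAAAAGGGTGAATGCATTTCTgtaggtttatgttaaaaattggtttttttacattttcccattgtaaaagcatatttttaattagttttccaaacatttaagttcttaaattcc
The cct-5 summit of replicate 2 lay just past its gap, in the 5' UTR of atf-7.

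The eta subunit gene cct-7 (WBGene00020391, chromosome V, 1872246 to 1875505, plus strand) came after cct-5 in the pooled list. Its strongest pooled summit at 1875705 (signal value 34.5, rank 1644) lay 200 bp past the 3' end. There it lies in the 3' UTR of zig-11, an immunoglobulin domain gene on the opposite strand that overlaps the end of cct-7 by 28 bp. The strongest summits ranked 1273 in replicate 1, 309 bp past the end, and 1990 in replicate 2, 171 bp past it. A pooled summit 415 bp upstream, at 1871831, ranked 2527. It lay nearer the divergent gene T10B5.4, whose annotated 5' end is at 1871807, than cct-7. In replicate 1 a summit in coding sequence at the middle of cct-7, 1608 bp from the 5' end, ranked 2123. The strongest summit of replicate 2 within the body of cct-7 ranked 21559.

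The delta subunit gene cct-4 (WBGene00000379, chromosome II, 8283667 to 8285711, plus strand) had its strongest pooled summit inside its own coding sequence. This summit at 8283885 (signal value 26.8, rank 2989) lay 218 bp from the 5' end. The strongest summits of the replicates lay 228 bp (replicate 1, rank 4791) and 373 bp (replicate 2, rank 4969) from the 5' end. The gene thus ranked lower in each replicate, at 17.2 and 16.6% of the list, than in the pooled reads, at 9.96%. All 4 of its pooled summits lay in the window of no other protein-coding gene, which held for no other member. A summit past the 3' end recurred in the 3 relaxed lists, at 175 bp, 171 bp and 163 bp, with ranks of 6987 (pooled), 7356 (replicate 1) and 11803 (replicate 2).

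The theta subunit gene cct-8 (WBGene00021934, chromosome IV, 1087108 to 1093920, minus strand) was bound at its 5' end and in introns of its first part. The strongest pooled summit at 1094081 (signal value 26.7, rank 3015) lay 161 bp upstream, 6 bp from the annotated non-coding RNA gene Y55F3AR.4. It also fell in the window of the divergent protein-coding gene Y55F3AR.2, 460 bp upstream of that gene. The strongest of replicate 1 lay 77 bp upstream (rank 1510), and that of replicate 2 in an intron 1589 bp from the 5' end (rank 3359). They were 1666 bp apart, the widest separation in the family. The pooled list held the intron place too, at 1595 bp with rank 3278, and the nearest replicate 2 summit to the upstream place, 41 bp away, ranked 7293. In replicate 1 the second summit of cct-8 lay 132 bp past the 3' end, in coding sequence of csn-4, a gene for a subunit of the COP9 signalosome, and ranked 2582.

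The beta subunit gene cct-2 (WBGene00000378, chromosome II, 8927741 to 8929815, plus strand) had its strongest pooled summit at 8929847 (signal value 25.6, rank 3306), 32 bp past its 3' end. It lay in the 5' UTR of mrpl-50, a gene for a protein of the mitochondrial ribosome that starts after a gap of 25 bp on the same strand. Replicate 2 had its strongest summit 8 bp from there (rank 1286). That of replicate 1 lay in the 3' UTR of cct-2, 161 bp inside the 3' end (rank 4148), so the gene was among the higher ranks of the family in replicate 2, at 4.29% of the list, and among the lower ones in replicate 1, at 14.9%. A summit near the middle of the gene ranked 7979 in the pooled list. In replicate 1 a coding summit 604 bp from the 5' end ranked 4541, close to the strongest one there.

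The alpha subunit gene cct-1 (WBGene00000377, chromosome II, 8185443 to 8187601, plus strand) had 3 pooled summits at the highest −log10 (q-value). They lay in coding sequence 714 bp from the 5' end (signal value 25.2, rank 3427), 263 bp upstream (rank 3719), and 75 bp past the 3' end (rank 4580). The upstream one also fell in the window of mig-5, the divergent neighbour that encodes a Dishevelled protein, and the last one in the coding sequence of T05C12.8 on the opposite strand. Replicate 1 had the upstream summit first (rank 3487) and replicate 2 the coding one (rank 4291). The coding summit ranked only 12261 in replicate 1.

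The gamma subunit gene cct-3 (WBGene00018782, chromosome II, 2233540 to 2243539, plus strand) is the longest member, with 10000 bp. It had the lowest rank of the family in the pooled list and in replicate 1. Its strongest pooled summit at 2243914 (signal value 23.6, rank 3937) lay 375 bp past its 3' end, in an intron of F54A3.2, the next gene on the same strand. The strongest summits of the replicates lay 454 bp (replicate 1, rank 7038) and 360 bp (replicate 2, rank 3536) past the end. In replicate 2, cct-1 (rank 4291) and cct-4 (rank 4969) ranked below cct-3. Inside cct-3 the strongest pooled summit lay in coding sequence 77 bp from the 5' end and ranked 6436. Replicate 2 had a summit 81 bp from the 5' end, with rank 16409. In replicate 1 the summit nearest the 5' end lay 624 bp from it, in an intron, and ranked 8132. At 25.3% of the list in replicate 1, cct-3 was the one member that came close to the median of genes with a summit there.

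**Figure D2:**
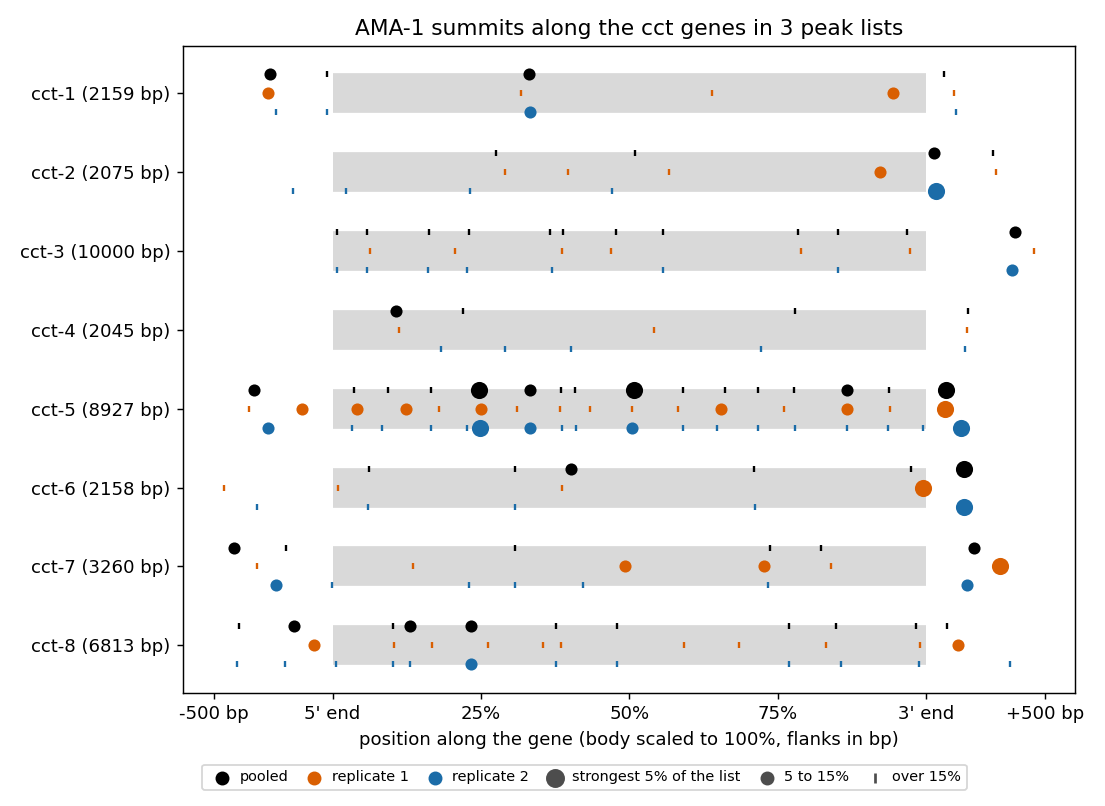
All summits of the pooled list (black), replicate 1 (orange) and replicate 2 (blue) along the 8 cct genes, with gene bodies (grey) scaled to 100% and flanks of 500 bp, and larger dots for stronger ranks. The largest dots, in the strongest 5% of a list, lie at or past the 3' ends of cct-2, cct-5, cct-6 and cct-7 and inside cct-5.

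Across the family the strongest pooled summit lay past the 3' end at 5 of the 8 genes, cct-2, cct-3, cct-5, cct-6 and cct-7. Of all genes with a pooled summit, 25.2% had their strongest one there. At cct-1, cct-4 and cct-8 the strongest pooled summit was nearer the 5' end, as it was at 55.0% of all genes with a summit. In replicate 1 the strongest summits of cct-3, cct-5 and cct-7 were past the end and those of cct-2 and cct-6 in the 3' UTR. In replicate 2 all of these 5 were past the end. Each of the 5 pooled summits past the 3' end, and the strongest pooled summit of cct-8, lay in the window of another protein-coding gene as well. A peak list does not tell which gene the polymerase was transcribing.

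This split changed when the flank past the 3' end was left out. Within gene bodies alone, the strongest pooled summit was nearer the 5' end at 6 of the 8 genes (cct-1, cct-3, cct-4, cct-5, cct-6 and cct-8), against 61.4% of the 6515 genes with a pooled summit in the body. With nothing counted past the 3' end, no cct gene held an optimal summit, as against 3.18% of all genes.

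**Figure D3:**
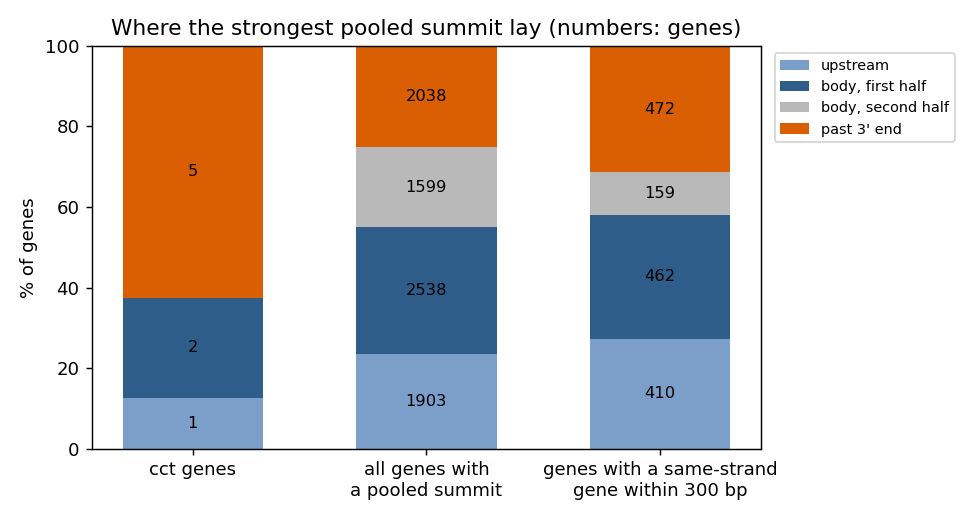
Share of genes by the place of their strongest pooled summit, for the 8 cct genes, all 8078 protein-coding genes with a pooled summit, and the 1503 of these with a same-strand gene starting within 300 bp past their end, with the number of genes in each block. The block past the 3' end holds 5 of 8 cct genes, 2038 genes in all and 472 genes with such a neighbour.

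The cct genes share a layout that the list of names did not use. Worm genes on one strand that lie close together are often transcribed jointly as operons, and genes facing away from each other can share a start region. A gene on the same strand started within 300 bp of the 3' end at 5 of the 8 members (cct-2, cct-3, cct-5, cct-6 and cct-8), against 12.6% of all protein-coding genes. The gaps ran from 25 bp before mrpl-50 to 260 bp before ddx-23. Of these 5 members, 4 had their strongest pooled summit past the 3' end (all but cct-8), against 31.4% of the 1503 genes with such a neighbour and a pooled summit. The nearest upstream protein-coding gene was on the opposite strand at all 8 members, against 45.4% of all genes, at distances from 330 bp (alh-9 at cct-6) to 1189 bp (B0457.2 at cct-2).

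Summits were denser along the cct genes than along the typical gene with a summit. The members held 4 to 16 pooled summits each, 63 in all, or 1.09 to 1.90 per kb of window with a median of 1.36. The median over genes with a pooled summit was 0.754 per kb. Of the 63 summits, 27 lay in introns, 17 in coding sequence, 9 past the 3' end, 7 upstream and 3 in 3' UTRs, and 0 in an annotated 5' UTR. Of these summits, 44 lay in the window of no other protein-coding gene, and 21 had the highest −log10 (q-value). The annotation leaves little 5' UTR at some members, so the 0 does not show absence of polymerase near the start. The pooled summit 77 bp from the 5' end of cct-3 already lay in coding sequence. So did the replicate 1 summit 21 bp from that of cct-6. The intron summits belonged mainly to the long genes, with 10 in cct-5, 7 in cct-3 and 7 in cct-8, while cct-1, cct-2 and cct-4 held none.

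The distance between the strongest summits of the replicates was at most 300 bp at 6 of the 8 genes (cct-2 to cct-7) and had a median of 156.5 bp, from 66 bp at cct-5 to 1666 bp at cct-8. Of the 6445 genes with a summit in both replicates, 37.4% were within 300 bp, and the median distance was 584 bp. At cct-1 the distance was 986 bp. This count depended on the window: with gene bodies alone, or with nothing counted past the 3' end, the count within 300 bp was 1 of the 8 genes. Every strongest pooled summit had a summit of each replicate within 300 bp, though not always the strongest one. Because the pooled list holds the reads of both replicates, this is no separate evidence of agreement. The share over all genes was not computed.

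Upstream sequences were read because annotated 5' ends of worm genes often mark the site where a spliced leader is joined. The letters CAG, the end of such an acceptor, stood directly before the annotated 5' end at 7 of the 8 genes, all but cct-4, against 22.1% of all genes. The longer form TTTCAG stood there at cct-1, cct-2, cct-5 and cct-6, against 12.3% of all genes. Distances from the 5' end are thus distances from these annotated ends, and transcription may begin further upstream.

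The heat shock element, bound by the factor HSF-1, is made of inverted GAA units. The pair GAANNTTC occurred within 250 bp upstream at cct-1, cct-3, cct-5, cct-7 and cct-8, against 15.7% of all genes. The pair in the other order, TTCNNGAA, occurred at cct-1, cct-4, cct-5, cct-6 and cct-7, against 15%. At least one of the orders was found at 7 of the 8 members, all but cct-2, against 27.1% of all genes, and both orders at cct-1, cct-5 and cct-7, against 3.64%. Each pair reads the same on both strands. The forms with 3 units, which extend a pair by a further unit at the same spacing, were found upstream of 0 of the 8 members on either strand, against 1.63% of all genes. Within 300 bp past the 3' end one such form was found at cct-7, starting 185 bp past the end, near the strongest pooled summit at 200 bp, against 2.04% of all genes. The letters alone do not show binding of any factor.

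The upstream sequences of the 3 genes with both orders are shown with the pairs in capitals, from 250 bp upstream to the base before the annotated 5' end, read along the gene (WBcel235). They are chrII:8185193-8185442 (plus strand), chrIII:4508115-4508364 (minus strand) and chrV:1871996-1872245 (plus strand).
cct-1 upstream: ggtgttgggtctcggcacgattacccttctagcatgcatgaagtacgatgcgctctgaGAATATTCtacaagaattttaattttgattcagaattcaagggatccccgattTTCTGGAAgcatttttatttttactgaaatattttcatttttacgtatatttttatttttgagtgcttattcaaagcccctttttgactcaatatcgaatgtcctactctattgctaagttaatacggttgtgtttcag
cct-5 upstream: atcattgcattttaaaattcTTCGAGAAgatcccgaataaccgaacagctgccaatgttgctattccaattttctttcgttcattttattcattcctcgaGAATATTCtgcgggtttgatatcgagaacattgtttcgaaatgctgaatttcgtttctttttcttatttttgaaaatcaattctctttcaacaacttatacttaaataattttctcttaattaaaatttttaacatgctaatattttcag
cct-7 upstream: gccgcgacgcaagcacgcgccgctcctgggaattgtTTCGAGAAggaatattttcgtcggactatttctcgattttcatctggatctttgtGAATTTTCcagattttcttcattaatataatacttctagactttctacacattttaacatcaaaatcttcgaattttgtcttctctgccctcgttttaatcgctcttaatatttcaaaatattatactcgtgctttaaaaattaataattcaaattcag
The acceptor letters stand at the end of each sequence. Within these stretches, cct-5 had 1 summit, 129 bp upstream in replicate 1 (rank 3085). At cct-7 there was 1 in the pooled list, 198 bp upstream (rank 11220), and in replicate 2 there were summits 239 bp (rank 2421) and 2 bp upstream (rank 18300). At cct-1 there was 1 in the pooled list, 24 bp upstream (rank 23418), and in replicate 2 there were summits 239 bp (rank 6794) and 22 bp upstream (rank 10469). No stretch held a summit in all 3 relaxed lists, but this depends on the cut at 250 bp. At cct-1 the pooled summit 263 bp upstream (rank 3719) and the replicate 1 summit 270 bp upstream (rank 3487) lay just outside. Both were close to the replicate 2 summit 239 bp upstream. At cct-5 the replicate 2 summit 270 bp upstream (rank 1656) lay outside too, as did the replicate 1 summit of cct-7 319 bp upstream (rank 4899).

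The strongest summits of genes that work with the chaperonin differed in rank. The median strongest pooled rank was 10% of the list for the cct genes and 16.6% for the 6 prefoldin genes, pfd-1 to pfd-6, all of which held a pooled summit. An optimal summit was held by 2 of the 8 cct genes and 0 of the 6 prefoldin genes. A summit at the highest −log10 (q-value) was held by 8 of 8 cct genes and 3 of 6 prefoldin genes, and the strongest prefoldin summit of the pooled list was that of pfd-1 (rank 1440). The replicates ranked it lower, at 3493 in replicate 1 and 9423 in replicate 2, where pfd-3 (2355) and pfd-6 (4921) were the strongest of the 6. The strongest pooled summit of pfd-1 lay 92 bp past its 3' end, in the window of another protein-coding gene too. Among 21 actin and tubulin genes, the clients, 14 held a pooled summit. The median strongest rank of these 14 was 4.46% of the list. It leaves out the 7 client genes without a pooled summit, whereas the cct and prefoldin medians leave out no gene. An optimal summit was held by 4 of the 21 genes. In the pooled list these 4 ranked above every cct gene, but not in each replicate. The actin gene act-4 ranked 187 in the pooled list, 767 in replicate 1 and 205 in replicate 2, and act-2 ranked 307, 782 and 325 in these lists. The beta tubulin gene tbb-1 ranked 454, 352 and 1159, and the alpha tubulin gene tba-2 ranked 610, 612 and 11682. The strongest pooled summits of tbb-1 and tba-2 lay 236 bp and 100 bp past the 3' end. Each fell in the window of another protein-coding gene too, while those of act-4 and act-2 did not. The strongest cct gene, cct-6, ranked 558 in replicate 1, above act-4, act-2 and tba-2, and 1065 in replicate 2, above tbb-1 and tba-2. The beta tubulin gene tbb-2, without an optimal summit, ranked 384 in replicate 1 and 888 in replicate 2, above every cct gene in both. In the pooled list it ranked 1136, below cct-6 and cct-5. The 7 client genes without a pooled summit were act-5, mec-7, tba-6, tba-8, tba-9, tbb-4 and tbb-6. Of these, act-5 (rank 14323) and tba-9 (rank 26166) held a summit in replicate 1.

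Other cytosolic chaperone genes spanned a wider range of ranks than the chaperonin genes. An optimal summit was held by 2 of the 8 cct genes and by 5 of 8 such genes, whose median strongest rank was 1.27% of the pooled list. The Hsp70 gene hsp-1 ranked 13 in the pooled list, 24 in replicate 1 and 12 in replicate 2. In the same lists the J-domain gene dnj-13 ranked 28, 17 and 47, and hsp-90 ranked 84, 69 and 66. The Hsp70 relative hsp-110 ranked 151, 47 and 50, and the J-domain gene dnj-12 ranked 609, 357 and 793. The strongest pooled summit of each of these 5 genes lay past the 3' end, from 76 bp at hsp-1 to 148 bp at dnj-12. Each also lay in the window of another protein-coding gene, so the rank need not belong to the chaperone gene alone. All 5 ranked above every cct gene in all 3 lists. The other 3 did not: cdc-37, a co-chaperone of Hsp90, ranked 2135, 1321 and 3329, and sti-1, which links Hsp70 and Hsp90, ranked 3464, 2463 and 2325. The myosin chaperone gene unc-45 ranked 9918 in the pooled list, below every cct gene, 5230 in replicate 1 and 23471 in replicate 2. The strongest pooled summit lay past the 3' end at 5 of the 8 cct genes and at 6 of these 8 genes. Of the mitochondrial chaperones, hsp-6 ranked 227 in the pooled list, with an optimal summit, 401 in replicate 1 and 162 in replicate 2. The gene hsp-60, for the chaperonin of that organelle, ranked 1821, 891 and 2772 without an optimal summit. The strongest pooled summit of hsp-6 lay 271 bp past its 3' end, in the window of another protein-coding gene too. These lists were not tested against each other.

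**Figure D4:**
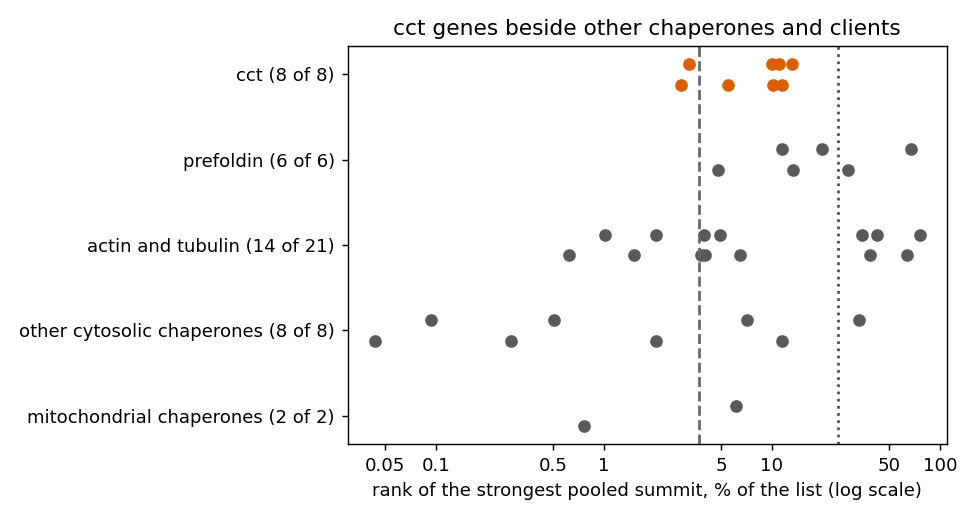
Rank of the strongest pooled summit as a percentage of the list (log axis) for the cct genes (orange) and for prefoldin, actin and tubulin, other cytosolic chaperone and mitochondrial chaperone genes (grey), 1 point per gene, with the number of genes holding a summit. The cct points lie between 2.88 and 13.1%, right of 5 cytosolic chaperone genes; the dashed line is the end of the optimal list (3.68%) and the dotted line the median of all genes with a summit (24.6%).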

How the data were processed

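AMA-1 ChIP-seq peak lists of whole young adult N2 worms were used, from 1 group with 2 biological replicates numbered in the labels. Per the READMEs deposited with the samples, relaxed lists were derived from alignments and a control alignment, per replicate and on pooled reads, and the optimal IDR list from these. Names and versions of aligner and caller were not given in the sources used here. Peaks were ranked by the deposited signal value, a score of the authors' caller. Deposited q-values are on the −log10 (q-value) scale. Only the ce11 lists were placed on genes (Ensembl release 115, WBcel235). All peaks ended inside its chromosomes, and positions are 1-based. The 1103 optimal summits were all found among the 1103 strongest pooled peaks. Read depth is unknown.

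A summit was counted for every gene whose window held it. Median best ranks over all genes leave out genes without a summit. No test was run, because there is 1 group and the members are a list chosen by name. Shares over all protein-coding genes are given for the counts of genes with a summit, of its side, of layout, of motifs and of replicate distance and order in the main windows. The assignment was tested on simulated data. Genes named are the 8 members, genes that share or neighbour their strongest summits, listed pathway genes with an optimal summit or the strongest rank, and the 3 genes most like cct-6. The prefoldin genes, hsp-60, cdc-37, sti-1, unc-45, tba-1, tbb-2 and client genes without a pooled summit were named after their values were seen. Members and lists were chosen with earlier results of these data known. Alternatives were other gene windows, coding spans, peak overlap, other list lengths and distances, peak midpoints, and each replicate left out. Scripts ran in Python 3.11.15 with matplotlib 3.10.9, numpy 2.4.6, pandas 2.3.3 and pyfaidx 0.9.0.4.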

Additional observations from a re-analysis of the deposited data

How the results depend on the processing

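The counts of cct genes with a pooled summit and with summits in both replicates were 8 in every alternative run. The count of cct genes with an optimal summit, 2, became 0 with gene bodies only, with nothing past the 3' end, with the 551 strongest optimal peaks, and with summits in no other protein-coding window (chosen after seeing the data). With the 1103 strongest peaks of one replicate it was 1 without replicate 1 and 1 without replicate 2, cct-6 each time. With 2206 pooled peaks it was 3, with cct-7 added. Among all protein-coding genes the share with a summit was 2.32% for the 551 strongest optimal peaks and 7.9% for the 2206 pooled peaks. It was 4.37% without replicate 1 and 4.25% without replicate 2, beside 4.4% for the optimal list. The median best rank, 10% of the list, was 12.3% with gene bodies only, 10.7% with nothing past the 3' end, and 8.92 to 8.97% with a replicate left out. The count of genes nearer the 5' end, 3, was 6 with gene bodies only, 7 with nothing past the 3' end, 5 with coding spans, and 6 with summits in no other window. The count of genes with replicate summits within 300 bp, 6, was 1 with gene bodies only and 1 with nothing past the 3' end. The count ranked higher in replicate 1, 5, was 3 with gene bodies only. Gene bodies hold fewer summits by construction. For nearness to the 5' end, the share over all genes in an alternative setting was computed for gene bodies only (61.4%). For replicate distance and replicate order it was not computed in any alternative setting.

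Positions of the strongest summit, as a percentage of the gene from its 5' end, ran with a replicate left out from -12.5 to 33.2 at cct-1 (33.1 pooled), where leaving out replicate 2 moved it upstream, from 92.2 to 102 at cct-2 (102), 104 to 105 at cct-3 (104), 11.2 to 18.2 at cct-4 (10.7), 101 to 102 at cct-5 (101), 99.5 to 107 at cct-6 (107), 105 to 109 at cct-7 (106), and -1.13 to 23.3 at cct-8 (-2.36), where leaving out replicate 1 moved it into an intron. No paired analysis was possible because there is 1 group.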

Other observations

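The protein-coding genes closest to cct-6 in the pair of replicate ranks, over 2 replicates and 6423 genes compared, were bcat-1, ndk-1 and far-7. Closeness was the distance between log10 ranks. The gene bcat-1, for an aminotransferase of branched-chain amino acids, ranked 537 in replicate 1 and 1038 in replicate 2. The nucleoside diphosphate kinase gene ndk-1 ranked 546 and 1013, and far-7, for a protein that binds fatty acids and retinol, ranked 533 and 998, in the same order of replicates. In the pooled list cct-6 ranked 864, bcat-1 1591, ndk-1 1558 and far-7 1491. Their strongest pooled summits lay 43 bp from the 5' end at bcat-1, 212 bp from it at ndk-1, and 180 bp past the 3' end at far-7.

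Among the clients of the chaperonin, the alpha tubulin gene tba-2 ranked 612 in replicate 1 and 11682 in replicate 2, while its relative tba-1 ranked 1255 in replicate 1 and 953 in replicate 2. Among the cct genes the largest ratio between replicate ranks was at cct-2 (4148 in replicate 1 and 1286 in replicate 2), and the largest difference in rank at cct-3 (7038 and 3536).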
